A study of Mus musculus with 50 samples.

Results

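Long noncoding RNAs are transcribed and usually capped and spliced like mRNAs, yet most are not translated, and here they were followed through a precipitation of ribosomes. The transcripts described here are *Malat1*, *Neat1*, *Meg3*, *Miat*, *Rian*, *Mirg*, *Snhg11*, *Snhg1* and *Gas5*, 9 of the 24552 genes counted. They were chosen by name, as long noncoding RNAs present in both deposited count tables, and all 9 passed the filter on low counts in every model. GENCODE vM21 types *Snhg11* as protein-coding, and RefSeq as a long noncoding RNA. RNA came from the nucleus accumbens (NAc) of C57BL/6 mice aged 8-12 weeks, of genotype RT; D1-Cre or RT; D2-Cre. RT stands for RiboTag, an allele that puts an HA tag on a ribosomal protein in cells with Cre, here medium spiny neurons (MSNs) with D1 or with D2 dopamine receptors according to the Cre line, a BAC transgene. An antibody against HA then precipitates the tagged ribosomes (IP), and RNA of the same homogenate is the input, from all cells of the tissue. Each library held the tissue of 2 pooled male mice that were undefeated controls (Con) or were called resilient (Res) or susceptible (Sus) by social interaction after up to 10 days of social defeat.

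The 46 libraries were 13 D1-IPs (4 Con, 4 Res and 5 Sus), 15 D2-IPs (5 per stress group) and 18 inputs (3 per stress group in each line). A further 4 D1-IP libraries of undefeated mice of genotype RT; Sirt1-floxed; D1-Cre are labelled Sirt1-KO. Counts on genes ran from 21591075 to 31009626 per IP and from 18384265 to 28179940 per input. Of the markers of the MSN types, 4 of 4 for D1 were higher and 4 of 4 for D2 lower in D1-IP than in D2-IP, although the D2 markers were also higher in D1-IP than in its input (sums of 2061 to 3470 and 776 to 1324 CPM, counts scaled to library size). The summed level of 6 astrocyte markers was 37.9 to 95.8 CPM in the IPs against 791 to 1010 in the inputs, and that of 5 neuronal markers was 5459.7 to 6806 CPM against 3032 to 3797. The share of reads outside annotated exons, intronic reads among them, is called here the no-feature share. It was 10.4% to 17.6% in the IPs and 23.4% to 27.2% in the inputs. The 4 IP libraries numbered 5 stood apart in *Malat1*, and results that rest on them are given with and without them.

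These transcripts are known for several kinds of work in the nucleus. *Malat1* collects at nuclear speckles, the stores of splicing factors, *Neat1* is the scaffold of paraspeckles, and *Miat* (Gomafu) lies in nuclear bodies of neurons. *Meg3*, *Rian* and *Mirg* are expressed from the maternal chromosome of the imprinted Dlk1-Dio3 region and carry microRNAs or C/D box snoRNAs. *Gas5*, *Snhg1* and *Snhg11* are snoRNA host genes, whose introns release snoRNAs while the spliced exons can leave the nucleus, and *Gas5* is a classic example of a host RNA that is loaded on ribosomes and then degraded by nonsense-mediated decay.

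Positions are those of the GENCODE vM21 annotation on GRCm38, which is mm10. *Malat1* (chr19:5795690-5802672, minus strand) and *Neat1* (chr19:5824708-5845478, minus) are neighbours, and *Snhg1* lies on the same chromosome (chr19:8723475-8726443, plus) with 8 snoRNA genes inside. *Meg3* (chr12:109541001-109571726, plus), *Rian* (chr12:109603940-109661716, plus) and *Mirg* (chr12:109729764-109749460, plus) follow each other on chromosome 12. Inside them the annotation places 1 microRNA hairpin in *Meg3*, 3 hairpins and 13 snoRNA genes in *Rian* and 14 hairpins in *Mirg*. *Gas5* (chr1:161034422-161038539, plus) holds 10 snoRNA genes and *Snhg11* (chr2:158375638-158386145, plus) 2. *Miat* lies at chr5:112213228-112229395 on the minus strand and shares 2260 exon bases with *Gm26953* on the other strand. Because the strand setting of the counting is not given in the sources used here, reads of *Miat* and of that partner cannot be told apart from these values, and the same holds for 1228 bases that *Meg3* shares with *Gm26906* and 453 that *Malat1* shares with *Gm37376*.

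The libraries were made after poly-A selection, so the 3′ ends of the transcripts bear on what was captured. *Malat1* and the long form of *Neat1* are known to end at an encoded A-rich tract and not in an added tail, whereas the short form of *Neat1* is cut at an ordinary poly-A signal. The 30 bases up to each of these ends are shown on the minus strand, with the A-rich tract or the signal AATAAA in capitals. They lie at chr19:5795982-5796011 for *Malat1*, chr19:5824708-5824737 for the long form of *Neat1* and chr19:5842307-5842336 for its short form (GENCODE vM21, GRCm38).
Malat1 at the A tract: ttccctagctttAAAAAAAAAAAAGCAAAA
Neat1 long form end: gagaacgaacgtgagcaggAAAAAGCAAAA
Neat1 short form end: tttacagcaaAATAAAggtttgagattgaa
Both A-rich tracts hold the last bases of the long form, AAAAAGCAAAA. That sequence occurred on the transcript strand in the last 60 bases of 0.0382% of 141515 annotated transcripts, while AATAAA occurred there in 27.2%. The bases shown for *Malat1* are 6662 to 6691 of an annotated transcript of 6983 bases, so they lie outside the last 60 of that transcript. How much of each transcript the poly-A selection kept was not tested. The level of *Neat1* is the sum over both forms, which the counts do not separate.

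Promoters were looked at for the members that a RefSeq table of windows (250 bases before to 50 after a gene's start, GRCm38.p6) covers, which were 8 of the 9. Of their 10 windows, 2 held the palindrome TGACGTCA, the cyclic AMP response element, a sequence found in 1.79% of all 32851 windows. They belong to *Gas5* (30 bases shown, chr1:161035109-161035138, plus strand) and *Meg3* (chr12:109540928-109540957, plus strand). Both genes have 2 windows, and the other window of each does not hold the palindrome. Capitals mark TGACGTCA, which begins at position -46 from the RefSeq start of the window in *Gas5* and at -57 in *Meg3*. In *Gas5* these bases lie inside the gene as GENCODE vM21 places it, from chr1:161034422 on.
Gas5 promoter: gctttgcgtctTGACGTCAcgaagacctta
Meg3 promoter: gcagaatgcgcTGACGTCAaagaccacccc
*Gas5* is also known for transcripts that open with a pyrimidine run, like mRNAs of ribosomal proteins, and CTTTC opened 4 of its 25 annotated transcripts and 0.166% of 141767 transcripts in all. These matches describe the letters in the windows only.

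All 9 long noncoding RNAs were lower in the ribosome IP than in the input, in both lines. In the D1 line the fold differences ran from 2.46 for *Rian* to 10.3 for *Mirg*, and in the D2 line from 1.64 for *Meg3* to 6.10 for *Mirg*. Each of the 18 differences had an adjusted p of at most 4.8e-07 (edgeR quasi-likelihood test, Benjamini-Hochberg adjustment over 15404 genes). Lower levels in the IP were common among genes, with 42.6% of all tested genes called lower in the D1 line and 44.8% in the D2 line. In either direction 81.8% and 82.7% were called. How many of all genes have IPs and inputs without overlap was not counted, so the overlaps given below have no such background. The median log2 fold change of the 9 was -1.85 in D1 and -1.26 in D2, against -0.04 and -0.08 over all tested genes. Together the 9 took 1.51% to 1.95% of the counts of an input and 0.338% to 1.12% of those of an IP. Input libraries hold all cells of the tissue and the IP a subset, and in such bulk samples fewer cells of a type and less RNA per cell cannot be told apart.

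**Figure D1:**
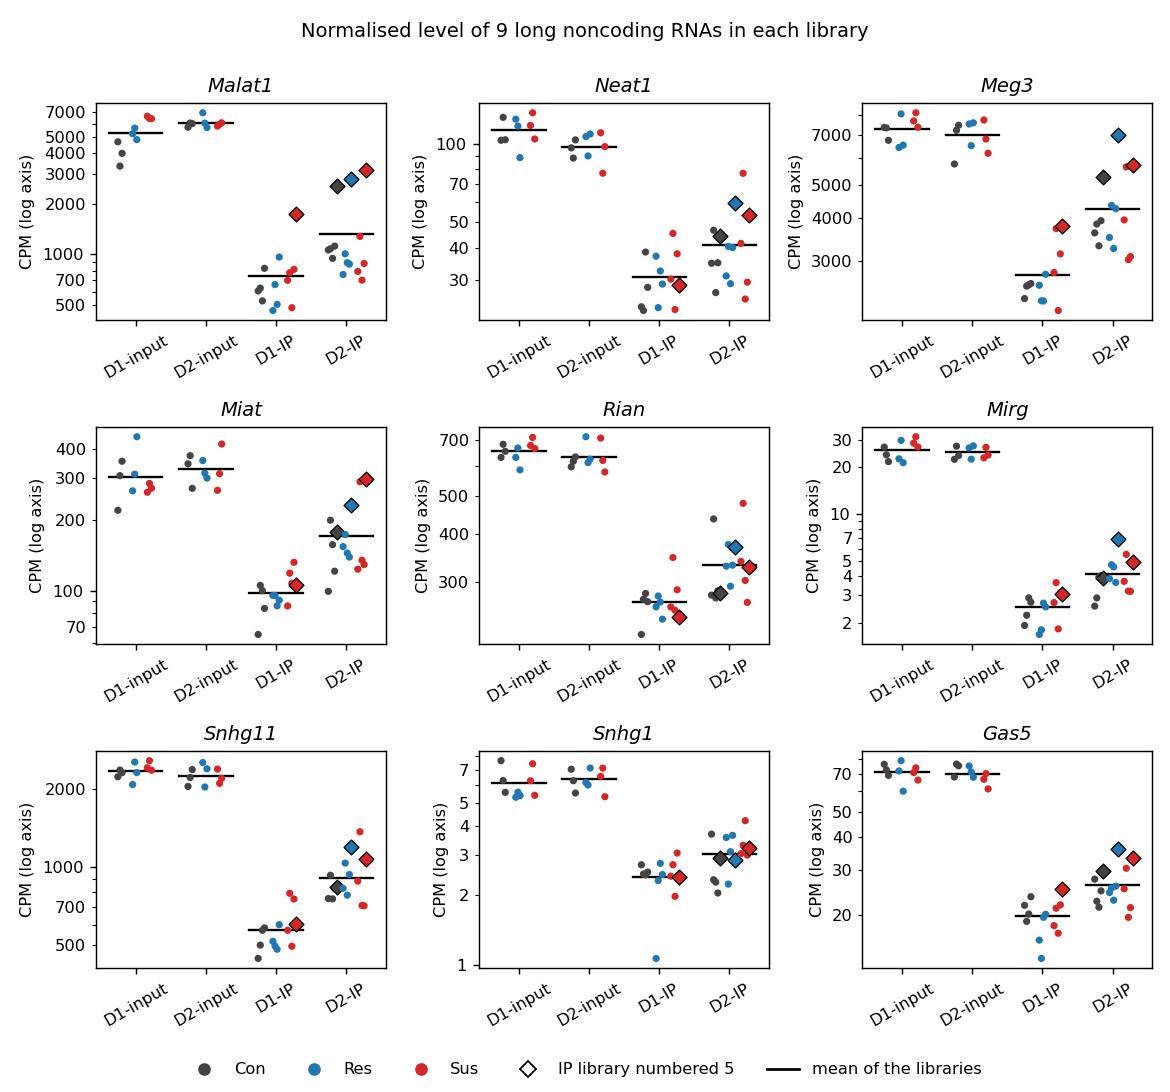
Normalised level (CPM, log axis) of each long noncoding RNA in each of the 46 libraries, with inputs at the left and IPs at the right of each panel, colours for the stress groups, diamonds for the 4 IP libraries numbered 5 and a line for the mean of the libraries. The IPs of every transcript lie mostly below the inputs, and only Meg3 and Miat have an IP above their lowest input.

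Among the transcripts of nuclear bodies, *Malat1* differed most. In the D1 line its level was 3354 to 6649 CPM (median 5227) over 9 inputs and 462 to 1729 (median 659.8) over 13 IPs. In the D2 line it was 5697 to 6975 CPM (median 6009.9) over 9 inputs and 702 to 3175 (median 1007) over 15 IPs. No IP reached the lowest input, and the highest IP values all came from libraries numbered 5. The log2 fold change was -2.83 ± 0.25 (SE) in D1 and -2.19 ± 0.24 in D2 (edgeR, adjusted p = 1.54e-12 and 1.82e-10), so that 5.89% and 8.91% of the tested genes stood as low or lower.

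*Neat1*, the paraspeckle scaffold and a transcript of much lower level, behaved alike in direction. Its level was 88.7 to 132 CPM (median 117) in D1 inputs and 23.0 to 45.4 (median 29.0) in D1-IPs, and 77.3 to 111 CPM (median 97.8) in D2 inputs and 25.4 to 77.3 (median 40.0) in D2-IPs. The D1-IPs lay well below their inputs, while the highest D2-IP came level with the lowest D2 input. For *Neat1* the log2 fold change was -1.89 ± 0.15 (SE) in D1 and -1.26 ± 0.14 in D2 (edgeR, adjusted p = 9.27e-14 and 6.94e-10).

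*Miat* was 219 to 451 CPM (median 285) in D1 inputs and 65.1 to 132 (median 95.4) in D1-IPs. In the D2 line it was 267 to 419.6 CPM (median 315) in inputs and 99.3 to 297 (median 154) in IPs. The groups were separate in the D1 line and overlapped in the D2 line, where D2-IP Sus 2 and Sus 5 were above the lowest input. For *Miat* the log2 fold change was -1.65 ± 0.15 (SE) in D1 and -0.95 ± 0.14 in D2 (edgeR, adjusted p = 2.86e-12 and 2.36e-07).

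The 3 imprinted transcripts of the Dlk1-Dio3 region were not lowered alike. *Mirg*, a microRNA host, had the largest difference of all 9: it was 21.3 to 31.3 CPM (median 26.8) in D1 inputs and 1.69 to 3.63 (median 2.68) in D1-IPs, and 22.4 to 27.3 CPM (median 23.9) in D2 inputs and 2.56 to 6.87 (median 3.91) in D2-IPs. These IP levels rested on 38 to 162 counts per library, and no IP came near an input. Its log2 fold change was -3.37 ± 0.11 (SE) in D1 and -2.61 ± 0.10 in D2 (edgeR, adjusted p = 8.29e-28 and 1.65e-25), and only 3.56% and 6.34% of the tested genes stood as low or lower.

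*Meg3*, the most abundant of the 9 in CPM, had the smallest difference in D2 neurons. It was 6439.7 to 8139.5 CPM (median 7372) in D1 inputs and 2148 to 3791 (median 2553) in D1-IPs. In the D2 line the inputs held 5764 to 7750.4 CPM (median 7233) and the IPs 3026 to 6985 (median 3934). The D2-IP of Res numbered 5, with 6985 CPM, was above the lowest input, and no D1-IP was. For *Meg3* the log2 fold change was -1.45 ± 0.12 (SE) in D1 and -0.72 ± 0.11 in D2 (edgeR, adjusted p = 8.03e-14 and 4.8e-07).

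*Rian*, host of a snoRNA array, was 585 to 709 CPM (median 664) in D1 inputs and 220.0 to 347 (median 267) in D1-IPs, and 577 to 712 CPM (median 618) in D2 inputs and 266 to 479 (median 329) in D2-IPs. The groups did not overlap. The log2 fold change was -1.30 ± 0.08 (SE) in D1 and -0.93 ± 0.08 in D2 (edgeR, adjusted p = 7.42e-18 and 4.42e-14). The 3 protein-coding genes of the same region went the other way or did not pass the test. *Dlk1*, a Notch ligand relative, *Rtl1*, derived from a retrotransposon, and *Dio3*, a deiodinase, rose in the D1-IP over input by 0.68, 0.73 and 0.63 on the log2 scale (edgeR, adjusted p = 3.86e-05, 0.000477 and 0.000294). In the D2 line their differences were -0.22, 0.08 and 0.30 and none passed (edgeR, adjusted p = 0.121, 0.705 and 0.0696).

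The snoRNA hosts were lower without exception. *Snhg11*, a host that is abundant in neurons, was 2078 to 2567 CPM (median 2359) in D1 inputs and 444 to 792 (median 570.3) in D1-IPs, and 2033 to 2525 CPM (median 2211) in D2 inputs and 709 to 1366 (median 839.9) in D2-IPs. A wide gap separated IP and input in both lines. Its log2 fold change was -2.07 ± 0.09 (SE) in D1 and -1.31 ± 0.09 in D2 (edgeR, adjusted p = 6.23e-22 and 1.41e-16).

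*Gas5* was 60.1 to 78.8 CPM (median 71.9) in D1 inputs and 13.6 to 25.2 (median 20.2) in D1-IPs, and 61.3 to 76.5 CPM (median 70.3) in D2 inputs and 19.6 to 36.1 (median 25.3) in D2-IPs. Although its spliced RNA is a textbook ribosome-bound noncoding RNA, every IP was below every input. For *Gas5* the log2 fold change was -1.85 ± 0.08 (SE) in D1 and -1.43 ± 0.08 in D2 (edgeR, adjusted p = 2.48e-22 and 1.74e-19).

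*Snhg1* had the fewest counts, 24 to 113 per IP, though not the lowest level per kilobase. It was 5.32 to 7.66 CPM (median 5.60) in D1 inputs and 1.07 to 3.05 (median 2.46) in D1-IPs, and 5.34 to 7.11 CPM (median 6.27) in D2 inputs and 2.05 to 4.21 (median 3.03) in D2-IPs. No IP reached an input here either. For *Snhg1* the log2 fold change was -1.34 ± 0.11 (SE) in D1 and -1.07 ± 0.11 in D2 (edgeR, adjusted p = 2.26e-14 and 3.95e-12).

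The direction held within pools. In each of the 18 pools of mice with both an IP and an input library, each of the 9 transcripts was lower in the IP, although for *Neat1* in D2 Sus 2 the fold difference was only 1.00. Within pools the fold difference of *Mirg* ran from 7.48 to 16.4 in the D1 line and from 4.76 to 9.40 in the D2 line, that of *Malat1* from 5.33 to 13.4 and from 4.67 to 9.21, and that of *Meg3* from 2.18 to 3.52 and from 1.21 to 2.33. Without the 4 IP libraries numbered 5, all 9 were still called lower in both lines. Scaling by total counts in place of TMM moved the median of all genes to -0.23 in D1 and -0.21 in D2 and left all 18 calls.

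**Figure D2:**
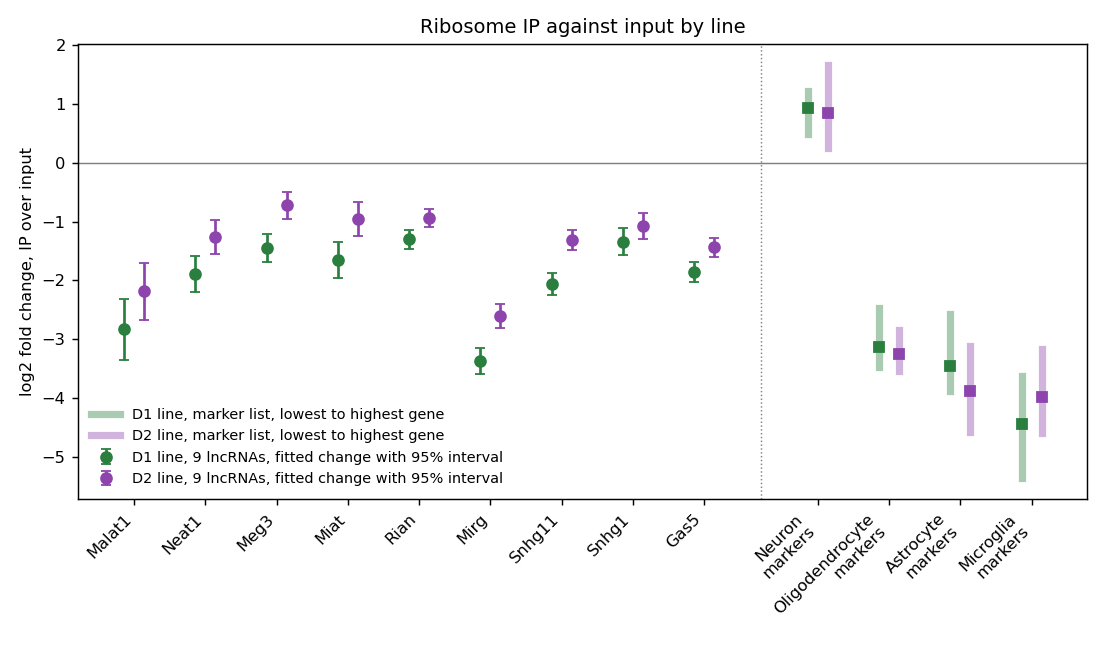
Log2 fold change of IP over input in the D1 and D2 lines, as fitted values with 95% intervals for the 9 long noncoding RNAs and, at the right, as the lowest, median and highest gene of 4 lists of cell type markers. All 9 transcripts lie below 0 and the D1 value is below the D2 value for each; only Mirg, in D1, lies below the median of the oligodendrocyte markers, and neuronal markers lie above 0.

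Beside these values stand the markers of cells that the IP should leave out. All of the listed glial and endothelial markers were lower in the IP than in the input. On the log2 scale the median of 6 astrocyte markers stood at -3.45 (D1 line) and -3.88 (D2 line), with -3.13 and -3.24 for 6 oligodendrocyte markers, -4.44 and -3.98 for 6 microglial markers and -3.88 and -3.57 for 4 endothelial markers. The 5 neuronal markers rose, with medians of 0.93 and 0.85. The no-feature share also moved with the comparison, from a median of 25.4% in inputs to 11.8% in IPs. The part of glial RNA and of unspliced or nuclear RNA in the lower levels of the 9 transcripts was not tested.

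Compared per kilobase of exon, the order of levels changed between input and IP. For *Neat1* the length used was 20771 bases, that of the long form, while the short form has 3004. Its place in the order depends on that choice. In D1 inputs the order was *Malat1* (752 CPM per kb), *Meg3* (404), *Snhg11* (276), *Rian* (35.9), *Miat* (32.6), *Gas5* (18.9), *Neat1* (5.45), *Mirg* (3.54) and *Snhg1* (2.06). *Rian* and *Miat* did not differ beyond their spread (SD 1.98 and 7.22, n = 9), and in D2 inputs *Miat* was at 35.5 and *Rian* at 34.7 CPM per kb. In the IPs *Meg3* took the first place, with 151 CPM per kb in D1 and 235 in D2 against 107 and 190.0 for *Malat1*, differences that lay within 1 SD of *Malat1* (47.6 and 115, n = 13 and 15). *Mirg* fell to the last place, with 0.346 CPM per kb in D1-IPs and 0.562 in D2-IPs, below *Snhg1* at 0.811 and 1.02.

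Other long noncoding RNAs were read beside the 9, from lists drawn up for this comparison. Of 18 other snoRNA hosts 16 could be tested, and all 16 were lower in the IP in both lines, with a median log2 fold change of -1.31 in D1 and -0.99 in D2. By the mean of both lines the lowest were *Snhg18* (-3.45 in D1 and -3.32 in D2) and *Snhg3* (-2.22 and -1.97). Of 17 tested long noncoding RNAs that are neither members nor hosts, 14 were lower and 3 higher in D1, and 12 were lower and 2 higher in D2, with medians of -1.33 and -0.88. *Lncpint*, a p53-induced transcript, was at -3.73 and -3.40 and *Nespas*, an imprinted antisense RNA, at -2.61 and -1.58. A lower level in the IP was thus not shared by every long noncoding RNA: *Tug1*, needed in retinal development, rose by 0.20 and 0.23 and the imprinted *Peg13* by 0.41 and 0.25 (edgeR, highest adjusted p = 0.000131).

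The lowering was stronger in the D1 line than in the D2 line for most of the 9. Tested as the difference of the log2 fold changes (D1 line minus D2 line), 7 of 9 passed an adjusted p of 0.05 as lower, against 11.8% of all 15404 tested genes. *Mirg* differed by -0.76 ± 0.15 (SE), *Snhg11* by -0.75 ± 0.13, *Meg3* by -0.73 ± 0.17, *Miat* by -0.69 ± 0.21, *Neat1* by -0.62 ± 0.21, *Gas5* by -0.42 ± 0.12 and *Rian* by -0.36 ± 0.11 (edgeR, adjusted p = 0.000211, 2.78e-05, 0.00104, 0.0136, 0.0277, 0.00631 and 0.0133). *Malat1* (-0.65, 95% interval -1.35 to 0.05) and *Snhg1* (-0.27, -0.59 to 0.05) did not pass, at adjusted p = 0.176 and 0.224 by the edgeR test. With the pool of mice as a block, the call of *Neat1* was lost (-0.52, edgeR adjusted p = 0.149) and 6 remained. That fit held only the 18 pools with both an IP and an input, and so no IP numbered 5. Without the 4 libraries numbered 5 and without the block, the call of *Neat1* was lost too (-0.51, edgeR adjusted p = 0.0796). Of the neighbouring coding genes, *Dlk1* differed the other way by 0.90 (edgeR, adjusted p = 0.000555).

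The same transcripts were then compared between the IPs themselves. All 9 were lower in D1-IP than in D2-IP at an adjusted p under 0.05, a call that 21.2% of 14224 tested genes shared. Without the 4 libraries numbered 5 that call was lost for *Neat1* (-0.30, edgeR adjusted p = 0.185) and stayed for 8. At a fold over 1.5 as well, 5 were called against 2.69% of all genes: *Malat1*, *Miat*, *Mirg*, *Snhg11* and *Meg3*. The other 4 differed by 1.26 to 1.35-fold, *Rian* least and *Neat1* most. Markers of other cells also differed between the IPs at an adjusted p under 0.05 (edgeR): 6 of 6 astrocyte markers were higher in D1-IP (median log2 fold change 0.49 over the list), as were 3 of 6 oligodendrocyte markers (median 0.19), while 4 of 6 microglial markers (median -0.42) and 1 of 4 endothelial markers (median -0.31) were lower. Their part in the differences of the 9 transcripts was not tested.

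The values by library show how far the lines overlapped. How many of all genes separate the lines this far was not counted. *Snhg11* was 444 to 792 CPM in 13 D1-IPs and 709 to 1366 in 15 D2-IPs, and 11 of the 13 D1-IPs were below every D2-IP. *Meg3* was 2148 to 3791 CPM and 3026 to 6985, with 10 of the 13 below every D2-IP. *Miat* (65.1 to 132 and 99.3 to 297 CPM) and *Mirg* (1.69 to 3.63 and 2.56 to 6.87 CPM) each had 11 of the 15 D2-IPs above every D1-IP. By the count of D1-IPs below every D2-IP, *Miat* had 7 and *Mirg* 6 of 13. *Malat1* had 8 of 13 D1-IPs below every D2-IP, and 3 of 15 D2-IPs above the highest D1-IP, all numbered 5.

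In the fit of all 28 IPs the log2 fold change of D1 over D2 was -0.89 ± 0.27 (SE) for *Malat1*, -0.83 ± 0.15 for *Miat*, -0.72 ± 0.13 for *Mirg*, -0.70 ± 0.10 for *Snhg11* and -0.68 ± 0.13 for *Meg3* (edgeR, adjusted p = 0.0113, 8.99e-05, 2.71e-05, 3.03e-06 and 0.000125). *Gas5* was at -0.42 ± 0.09, *Neat1* at -0.43 ± 0.16, *Snhg1* at -0.34 ± 0.12 and *Rian* at -0.33 ± 0.08. Between undefeated controls alone, with 4 D1-IPs and 5 D2-IPs, 2 of 9 were called at a fold over 1.5 (*Meg3* at -0.69 and *Snhg11* at -0.66, edgeR adjusted p = 0.0386 and 0.0114) against 1.51% of all genes called lower. The call of *Meg3* among controls was lost when any of 6 single libraries was left out, namely D1-IP Con 1, 2, 3 or 4 or D2-IP Con 4 or 5. With D2-IP Con 5 alone left out only *Snhg11* was called. Without all 4 IP libraries numbered 5, 2 were called, *Snhg11* (-0.65) and now *Malat1* (-0.71), while *Meg3* was at -0.57 (edgeR, adjusted p = 0.0297, 0.0477 and 0.0396). *Dlk1* and *Rtl1* were higher in D1-IP, by 0.99 and 0.76 on the log2 scale (edgeR, adjusted p = 8.21e-08 and 1.4e-05).

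The inputs of the lines did not show such a difference. None of the 9 was called between D1 and D2 inputs, where 0.0133% of 15063 genes were called (edgeR), and DESeq2 called none of the 9 either. At an unadjusted p under 0.05 there were 2, *Malat1* at -0.23 (edgeR, adjusted p = 0.546) and *Neat1* at 0.21 (edgeR, adjusted p = 0.998). The 95% intervals of the other 7 lay between -0.40 and 0.20.

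**Figure D3:**
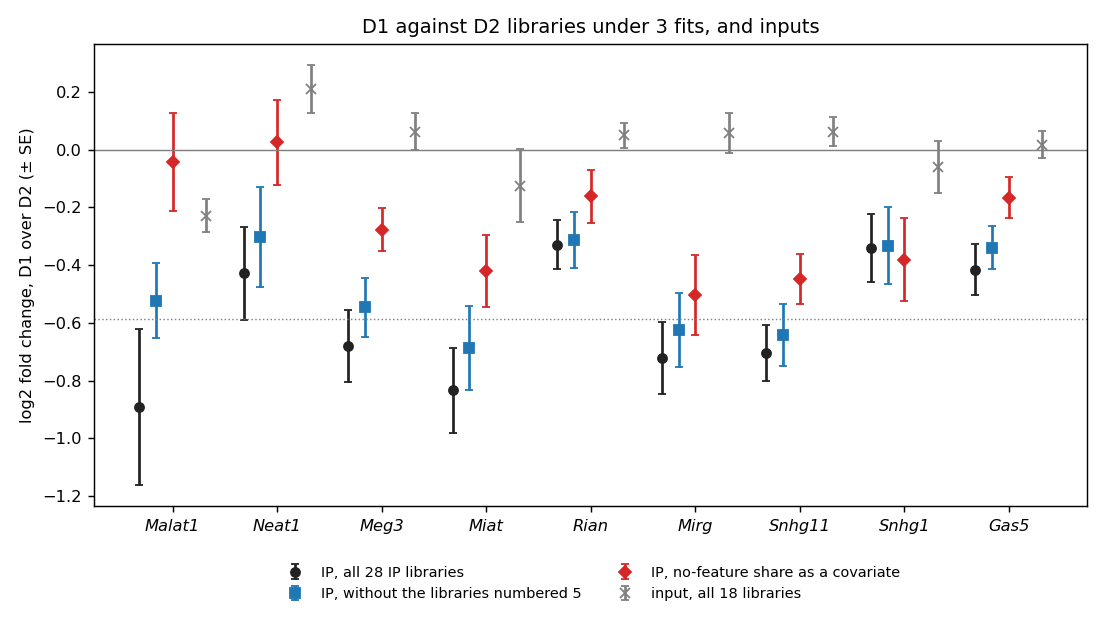
Log2 fold change of D1 over D2 with its SE for each transcript, from all 28 IPs, from the IPs without the libraries numbered 5, from a fit with the no-feature share as a covariate, and from the 18 inputs, with a dotted line at a fold of 1.5. With all 28 IPs 5 transcripts lie below the dotted line, without the libraries numbered 5 only 3 do, and with the covariate none does.

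The IP libraries numbered 5 and the no-feature share moved with this comparison. *Malat1* was 1729 CPM in D1-IP Sus 5, 2543 in D2-IP Con 5, 2798 in D2-IP Res 5 and 3175 in D2-IP Sus 5, against 462 to 1278 in the other 24 IPs. The no-feature shares of these 4 were 13.9%, 15.8%, 17.1% and 17.6%, and only D2-IP Con 2 (16.8%) and D2-IP Sus 2 (15.4%) of the others were above 13.9%. As 3 of the 4 are D2 libraries, the fit was repeated without them: *Miat* (-0.69), *Mirg* (-0.63) and *Snhg11* (-0.64) were still called at a fold over 1.5, while *Malat1* (-0.52) and *Meg3* (-0.55) kept adjusted p-values of 0.0036 and 0.000251 (edgeR) below that fold. In these 4 libraries the astrocyte sum was 44.0 to 64.2 CPM and the oligodendrocyte sum 451 to 563 CPM, inside the ranges of the other IPs. Their microglial sum was 10.5 to 21.7 CPM (median 18.4) against 12.7 to 18.1 (median 15.6) in the other D2-IPs and 9.45 to 16.7 in the other D1-IPs, and their endothelial sum was 4.87 to 8.70 CPM against 2.78 to 7.63 and 3.70 to 6.26. The part of these cells in the levels of the 9 transcripts was not tested.

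Over all IPs the no-feature share was 10.4% to 13.9% in D1 and 11.1% to 17.6% in D2. With that share as a covariate, chosen after the data were seen, none of the 9 was called at a fold over 1.5. *Snhg11* (-0.45, edgeR adjusted p = 0.000333), *Mirg* (-0.50, 0.00584), *Miat* (-0.42, 0.014), *Meg3* (-0.28, 0.0058) and *Snhg1* (-0.38, 0.0458) stayed lower at an adjusted p under 0.05. *Malat1* went to -0.042 and *Neat1* to 0.026 (edgeR, adjusted p = 0.889 and 0.922). Over all genes the number called in either direction went from 1084 to 933.

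Within each line, level and no-feature share were compared library by library, in 18 relations of which 9 passed an adjusted p of 0.05 by a permutation test. How many of all genes relate to that share was not counted, so these relations have no such background. Among D2-IPs (n = 15) Pearson's r was 0.85 for *Meg3* (rho 0.89), 0.84 for *Neat1* (rho 0.93), 0.84 for *Malat1* (rho 0.79), 0.79 for *Gas5* (rho 0.81), 0.79 for *Miat* (rho 0.65), 0.74 for *Snhg11* (rho 0.85) and 0.57 for *Rian* (rho 0.60), with adjusted permutation p from 0.00072 to 0.0492 for r and from 0.00018 to 0.0308 for rho. Among D1-IPs (n = 13) it was 0.85 for *Malat1* (rho 0.71, adjusted permutation p = 0.00298 and 0.0171) and 0.85 for *Meg3* (rho 0.76, adjusted permutation p = 0.00099 and 0.0105). By rho, though not by r, *Snhg11* (rho 0.74, adjusted permutation p = 0.01376) and *Gas5* (rho 0.66, adjusted permutation p = 0.03035) passed in D1-IPs as well. *Snhg1* and *Mirg* did not pass in either line, at r = 0.04 and 0.44 in D1 and -0.12 and 0.43 in D2.

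**Figure D4:**
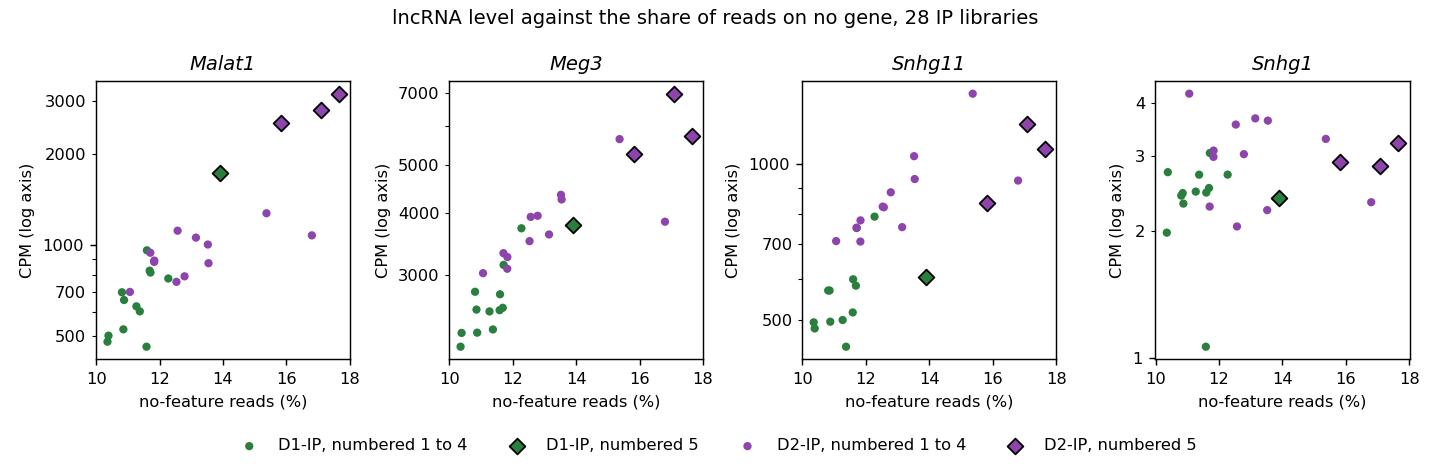
Level (CPM, log axis) of Malat1, Meg3, Snhg11 and Snhg1 against the no-feature share (percentage of reads outside annotated exons) in each of the 28 IPs, with colours for the line and diamonds for the libraries numbered 5. Malat1, Meg3 and Snhg11 are higher where that share is higher, and Snhg1 is not.

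Leaving out the 2 libraries farthest from the median share, the relation of *Malat1* in D1-IPs no longer held (r = 0.53, adjusted permutation p = 0.166) and neither did that of *Gas5* in D2-IPs (r = 0.62, adjusted permutation p = 0.0543), so that these rest on those libraries. The other 7 passed, with r from 0.64 for *Snhg11* to 0.81 for *Neat1*. Without the libraries numbered 5, 7 relations passed, *Snhg11* in D1 now among them (r = 0.66), while *Malat1* in D1 (r = 0.62, adjusted permutation p = 0.0684) and *Miat* (0.64, 0.0684) and *Gas5* (0.53, 0.143) in D2 did not. The relation of *Meg3* then stood at r = 0.78 in D1 and 0.70 in D2.

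The genes whose level over the 28 IPs was most like that of each transcript were looked up as a description, by Pearson's r of log2 CPM over 14223 other genes. These libraries share line and no-feature share, as given above. *Malat1* was most like *Bod1l* (r = 0.95), *Meg3* most like *Nipbl*, the cohesin loader (0.95), *Miat* most like *Eml6* (0.94), *Mirg* most like the kinase gene *Rock1* (0.90), *Neat1* most like *Phldb1* (0.89), *Rian* most like *Ttc14* (0.86) and *Gas5* most like *Pabpn1*, which encodes the nuclear poly-A binding protein (0.90). *Snhg11* had the closest match, the long noncoding RNA *A330023F24Rik* (0.98), and *Snhg1* the weakest, *Ndst2* (0.75). Among the 9 themselves all 36 pairs had a positive r, from 0.18 to 0.93 with a median of 0.70. Pairs of other genes were not counted, so these values have no such background. The r was taken over both lines together, and all 9 were lower in D1-IP than in D2-IP.

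The defeat groups were compared at an unadjusted p under 0.05, the threshold of the study, and almost no member passed. In D1-IPs none passed between Sus and Con, where 5.24% of 14224 genes did (edgeR), between Res and Con (2.05%) or between Sus and Res (4.08%). In D2-IPs none passed between Sus and Con (3.6%) or Sus and Res (1.62%), and 1 passed between Res and Con (2.94%). DESeq2 gave the same counts for these comparisons, and none of the 9 had an adjusted p under 0.05.

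*Malat1* in D1-IPs had the widest interval. It was 605, 629, 528 and 825 CPM in Con, 462, 659.8, 503 and 963 in Res, and 699.8, 777, 480.3, 813 and 1729 in Sus. Apart from Sus 5 the groups overlapped throughout. The log2 fold change of Sus over Con was 0.47 with a 95% interval of -0.51 to 1.46 (edgeR, adjusted p = 0.887).

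The transcript that passed in D2-IPs was *Mirg*. Its level was 2.56, 2.89, 3.93, 4.02 and 3.91 CPM in Con, 3.84, 4.72, 4.58, 3.64 and 6.87 in Res, and 3.70, 5.50, 3.20, 3.19 and 4.89 in Sus. Res and Con overlapped, and Res 5 was the highest of all. The log2 fold change of Res over Con was 0.44 ± 0.20 (SE; edgeR, adjusted p = 1). It was 0.32 without the libraries numbered 5 and no longer passed, and leaving out D2-IP Con 1 (0.35), Con 2 (0.38) or Res 5 (0.27) alone also ended the call.

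For the other transcripts the defeat groups differed by small amounts. Over the 9, the log2 fold changes of Sus over Con ran from -0.03 (*Gas5*) to 0.47 (*Malat1*) in D1-IPs and from 0.02 (*Malat1*) to 0.37 (*Miat*) in D2-IPs, and those of Res over Con from -0.28 (*Gas5*) to 0.11 (*Neat1*) and from -0.09 (*Malat1*) to 0.44 (*Mirg*). The difference of these effects between the lines was tested too. None passed for Sus against Con (1.74% of all genes), Res against Con (2.31%) or Sus against Res (1.95%), by the edgeR test. The nearest was *Mirg* in Sus against Res, at 0.58 with a 95% interval of -0.03 to 1.20.

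**Figure D5:**
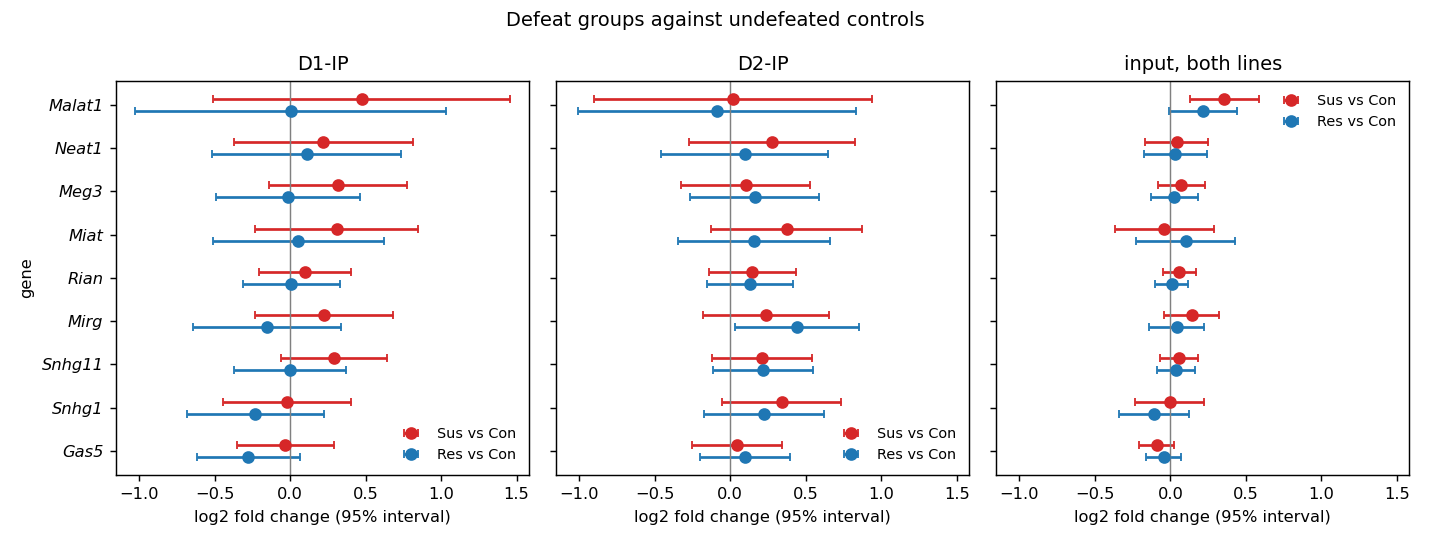
Log2 fold change of Sus and of Res over Con with 95% intervals for each transcript, in D1-IPs, in D2-IPs and in the inputs of both lines together. All intervals span 0 except those of Mirg for Res in the D2-IPs and Malat1 for Sus in the inputs.

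The inputs were compared at the same unadjusted threshold. At that threshold 1 pass among the 9 does not set the members apart from all genes. With both lines together 1 of 9 passed an unadjusted p of 0.05 between Sus and Con, where 4.35% of 14820 genes did, and none between Res and Con (3.15%) or Sus and Res (5.3%), where DESeq2 called 1 and 0. *Malat1* was higher in Sus than in Con by 0.36 ± 0.11 (SE) on the log2 scale (edgeR, adjusted p = 0.988).

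The values of *Malat1* in the inputs are given by line. In D1 inputs *Malat1* was 4681, 3354 and 3997 CPM in Con, 5227, 5650.4 and 4823 in Res and 6649, 6454 and 6436 in Sus. In D2 inputs it was 5725, 6057 and 6009.9 CPM in Con, 6975, 6051 and 5697 in Res and 5811, 5963 and 6072 in Sus. The 3 groups did not overlap in the D1 line, with Sus highest and Con lowest, and did overlap in the D2 line. How many of all genes separate the groups of a line in this way was not counted.

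A comparison by line was added after these values were seen, so that it is no independent support. *Malat1* in D1 inputs was higher in Sus than in Con by 0.71 ± 0.10 (SE) on the log2 scale, a 1.63-fold difference (edgeR, adjusted p = 0.0133 over 15063 genes), and higher in Res than in Con by 0.38 ± 0.10 (edgeR, adjusted p = 1). In D2 inputs Sus and Con differed by 0.0081 ± 0.10 (edgeR, adjusted p = 1). The difference between the lines was 0.70 ± 0.14 (edgeR, adjusted p = 1). The no-feature share of the same D1 inputs was 23.4% to 25.3% in Con, 24.4% to 25.6% in Res and 25.6% to 27.1% in Sus, and its part in the result was not tested. *Mirg* passed an unadjusted p of 0.05 in the same D1 comparison, at 0.27 (edgeR, adjusted p = 1).

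In the libraries labelled Sirt1-KO the targeted gene was checked first. *Sirt1*, which encodes a deacetylase, had 432, 502, 415 and 220 counts in the 4 libraries labelled Sirt1-KO and 387, 453, 458 and 384 in the 4 D1 Con libraries, so that only Sirt1-KO 5, the shallowest with 22174187 counts on genes, was below all controls. Whether the counted exons include the deleted part is not given in the sources used here. None of the 9 long noncoding RNAs was called between these libraries and D1 Con, where 0.705% of 13626 genes were (edgeR), none had an unadjusted p under 0.05, and DESeq2 called none of the 9. Their log2 fold changes ran from -0.19 for *Neat1* to 0.43 for *Malat1*. *Malat1* was 604, 849, 652 and 1199.8 CPM in the libraries labelled Sirt1-KO and 572, 596, 499.8 and 785 in D1 Con. The highest of these, Sirt1-KO 5, also had the highest no-feature share of the 8 libraries, 12.6%. These CPM were scaled within the second table, so those of D1 Con differ from the values given above for the same counts.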

How the data were processed

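The data were poly-A RNA-seq libraries of RiboTag IPs and inputs from mouse NAc. According to the paper's methods the authors trimmed reads with cutadapt, aligned them to mm10 with STAR and counted them per gene with HTSeq; the processing notes also name FastQC, HOMER and DESeq2. The counting annotation is not given in the sources used here. The deposited values are raw read counts per gene, in one table of IPs and inputs and one with the libraries labelled Sirt1-KO. In all, 2 columns matched no sample and were not used. Entries that name no gene were left out of library sizes; no-feature reads were 10.4% to 27.2% of reads on genes and no-feature reads together. Columns of D1 Con are identical in both tables.

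The members and gene lists were chosen with earlier results of these data known. Genes passing filterByExpr (minimum count 10, minimum total 15) were kept and scaled by TMM. They were tested with the robust quasi-likelihood test of edgeR 4.0.16 (R 4.3.3, limma 3.58.1), with Benjamini-Hochberg adjustment over all genes tested. Fold changes are on the log2 scale. CPM come from the 46-library model, except that those of the Sirt1-KO comparison come from the fit of the second table. Members were named in every comparison, other genes by rank within a list or as the closest match. Calls needed an adjusted p under 0.05, with a fold over 1.5 between lines and for Sirt1-KO, and an unadjusted p under 0.05 between defeat groups. Correlations used log2 CPM (prior count 2) and 1e+05 two-sided permutations. Alternatives were DESeq2 1.42.0, other filters and scalings, the replicate block and each replicate left out; leaving out the libraries numbered 5, the no-feature covariate and inputs by line were chosen after seeing the data. The tests were tested on simulated data. Python 3.11.15, numpy 2.4.6, scipy 1.17.1 and matplotlib 3.10.9 were used.

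IP and input of 1 pool come from the same homogenate, which pairs them, and their deviations from group means had a mean r of 0.05 over 18 pairs, 3 of them over 0.1. No 2 replicates agreed within sampling noise. P-values measure the spread between pools of 2 mice. The 4 sequencing sets are not named per library, so a batch cannot be told apart from the groups.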

Additional observations from a re-analysis of the deposited data

Results flagged for a closer look

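Taken over all transcripts, the groups of 4 or 5 libraries gave 63 sets. The sets are not independent, since the transcripts share the same libraries. A single library stood far from the others of its set in 8 of the 63, where chance gives about 1 in 20. *Malat1* gave 4 of these, all in IP libraries numbered 5: 1729 CPM in D1-IP Sus 5 (next 813), 2543 in D2-IP Con 5 (next 1119), 2798 in D2-IP Res 5 (next 1007) and 3175 in D2-IP Sus 5 (next 1278). *Gas5* was 36.1 CPM in D2-IP Res 5, with 25.9 next. *Rian* was 437 CPM in D2-IP Con 2, with 285 next, and *Snhg1* was 4.21 CPM in D2-IP Sus 3, with 3.29 next. *Neat1* was 31.9 CPM in the library labelled Sirt1-KO 1, with 22.0 next.

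The IP against input difference was not the same in both lines, by a test of the difference itself, for 7 transcripts. On the log2 scale the D1 line minus the D2 line was -0.62 for *Neat1*, -0.73 for *Meg3*, -0.69 for *Miat*, -0.36 for *Rian*, -0.76 for *Mirg*, -0.75 for *Snhg11* and -0.42 for *Gas5*.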

How the results depend on the processing

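Calls among the 9 are counted here. IP below input stayed at 9 in both lines and the difference between lines at 6 or 7 under every alternative run. The no-feature covariate was not fitted to these comparisons of IP with input. D1-IP below D2-IP, 5 in the fit reported, was 3 without the libraries numbered 5, 3 with the replicate block and 0 with the no-feature covariate; among Con it was 2, then 1 with a filter of at least 1 count, 3 with DESeq2, 3 with the block (*Malat1* -0.68, *Miat* -0.67 and *Snhg11* -0.61, not *Meg3* at -0.55), 0 with the covariate and 1 to 3 with a library left out. Nothing in the labels ties same-numbered IPs of other groups beyond the number: their deviations had a mean r of 0.07 over 66 pairs, but 0.20 over the 6 pairs numbered 5, 5 of them over 0.1, and 13 of 28 libraries correlated best with their own number. With the block *Neat1* lost its adjusted p under 0.05 between the IPs (-0.33, edgeR adjusted p = 0.105). The block also gave 1 call for Res over Con in D1-IPs and 1 for its difference between lines, each 0 without it. Res over Con in D1-IPs was 1 without the libraries numbered 5 and 1 with only the groups compared, as was Sus over Res, and Res over Con in D2-IPs went from 1 to 0 without those libraries. With a replicate left out, calls ran from 0 to 1 for D1-IP Sus over Con, D2-IP Res over Con and Sus over Con, the Res over Con difference and input Res over Con, and from 0 to 2 for D1-IP Sus over Res and the Sus over Res difference. Input Sus over Con, 1 as reported, was 2 in D1 inputs, 0 in D2 inputs and 2 under total counts, and input Res over Con, 0 as reported, was 1 in D1 inputs and 1 with DESeq2. Directions turned for *Neat1* between the IPs with the covariate (0.026, and 0.073 among Con), *Snhg1* among Con without D2-IP Con 1 (0.0799, leave-one-out range -0.153 to 0.0799), *Snhg1* between inputs under total counts (0.0083) and *Gas5* between inputs without D1-input Res 2 (-0.013) or D2-input Sus 3 (-5.91e-05, highest 0.049). Of 1840 single values, 1801 kept direction and call. Over all genes, calls between the IPs went from 1084 to 622 with a mean count of at least 50. With at least 1 count they went from 292 to 461 (D1-IP Res over Con), 230 to 432 (D2-IP Sus over Res), 247 to 440 (Sus over Con difference, 162 at a mean of 50), 328 to 507 (Res over Con difference, 551 with the block) and 277 to 500 (Sus over Res difference). Without the libraries numbered 5 they went from 230 to 478 (D2-IP Sus over Res) and 328 to 497 (Res over Con difference). The block took D2-IP Res over Con from 418 to 675, D1 against D2 inputs from 2 to 5 (10 with DESeq2, 1 at a mean of 50) and Sirt1-KO from 96 to 567 (223 with DESeq2). Input calls went from 644 to 397 and from 467 to 266 in the D2 line, and to 1509 and 733 under total counts. The causes were not tested. *Snhg1* and *Mirg* are limited most by depth, with 24 to 113 and 38 to 162 counts per IP.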
